A study of Rattus norvegicus with 12 samples.

Results

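The 2 windows of oxycodone exposure were set against each other in the prefrontal cortex of rat offspring. The IUO group (libraries IUO 1 to IUO 4) is named for in utero oxycodone. The PNO group (libraries PNO 1 to PNO 4) is named for postnatal oxycodone. Oxycodone is an agonist of opioid receptors. The comparison used 8 of the 12 libraries of the series as its members and the 4 saline libraries, whose treatment label is Control, only as a level to read the others against. All animals carried the WT label for genotype and were studied in early adolescence, and the strain and exact age are not given in the labels. A single treatment note covers all groups: 15 mg/kg of oxycodone by oral gavage, before pregnancy or after it and up to postnatal day 21. It does not say which schedule belongs to which group, so whether dosing in IUO also went on after birth is not known. Each group of 4 animals came from 2 dams with 2 animals each, and the labels tie no animal to a dam. Littermates therefore count as separate samples in every test below, and p-values may be too small for that reason. Of 22431 genes in the deposited table, the 14170 with a mean FPKM (fragment counts scaled to gene length and library size) of at least 0.5 over the 12 libraries were compared.

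The prefrontal cortex goes on maturing through adolescence, when its inhibitory circuits, its myelin and its inputs are still being refined. Opioids act through receptors coupled to inhibitory G proteins, which lower cAMP and damp neuronal firing. Transcription of the immediate early genes follows recent neuronal activity and cAMP signalling. Opioid receptors are present in the cortex of the fetus and of the newborn, so exposure in either window can reach them.

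The libraries of a group were not alike in their tissue markers, and this touched several results below. Total counts lay between 49227533 and 59252104 in the IUO and PNO libraries. Striatal markers, averaged as log2 CPM (CPM being counts scaled to library size) over 14 genes, stood at 4.94 in IUO 1, 6.0 in IUO 2 and 6.52 in PNO 2, with 4.75 in saline 2. The other libraries lay between 3.60 and 3.82. Markers of olfactory bulb projection neurons, over 6 genes, were at 4.37 in IUO 3, 3.76 in PNO 1, 3.66 in PNO 3 and 4.02 in PNO 4, and between 1.12 and 1.89 in all others. Each IUO and PNO library but one thus carried raised markers of one neighbouring region: striatum in 2 IUO and 1 PNO libraries, olfactory bulb in 1 IUO and 3 PNO libraries. IUO 4 carried neither. It had instead the highest level of cytosolic ribosomal protein genes, 6.13 against 5.23 to 5.60 in the other IUO and PNO libraries. The cortical layer markers lay within 5.85 to 6.06 in IUO libraries and 5.89 to 6.05 in PNO libraries. The Y-linked gene Eif2s3y stood at 53.9 CPM in IUO 3, at 47.7 and 47.5 CPM in PNO 2 and PNO 3, and at 61.6 and 55.6 CPM in saline 1 and saline 3, against at most 1.25 CPM in the other libraries. The labels give no sex, and the high level thus fell in 1 of 4 IUO, 2 of 4 PNO and 2 of 4 saline libraries. In bulk tissue, fewer cells of a type and less RNA per cell cannot be told apart, and the region a library carried is partly confounded with its group. Whether these markers account for any difference below was not tested. Alternative values are given with the marker class of the library (striatal, bulb or neither) as a block, and without IUO 4.

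**Figure D1:**
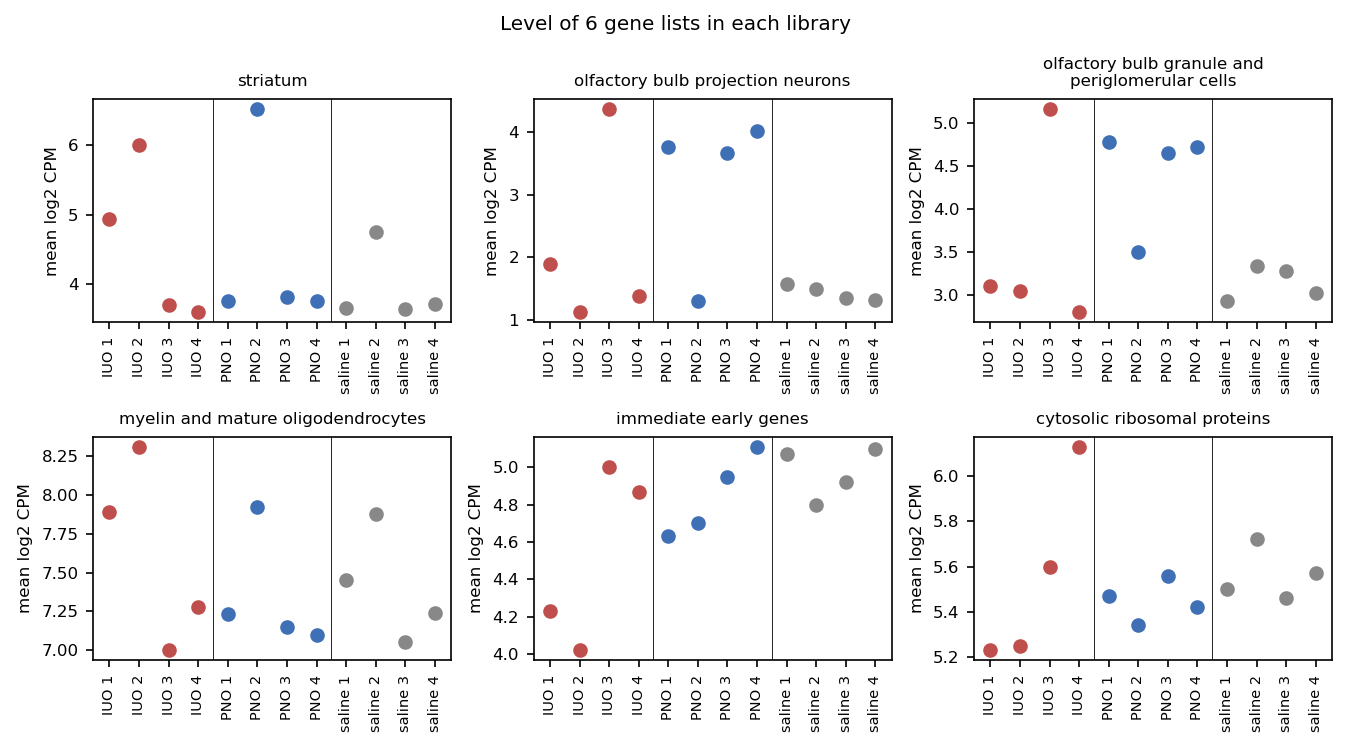
Level of 6 gene lists (mean log2 CPM over the list's tested genes, vertical axis) in each of the 12 libraries (horizontal axis), with IUO in red, PNO in blue and saline in grey. Striatal markers were high in IUO 1, IUO 2, PNO 2 and saline 2, bulb markers in IUO 3, PNO 1, PNO 3 and PNO 4, and ribosomal protein genes in IUO 4.

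No gene differed between IUO and PNO at an adjusted p under 0.05 in edgeR's quasi-likelihood test with Benjamini-Hochberg adjustment (0 of 14170, percent called 0). The smallest adjusted p was 0.714. At an unadjusted p under 0.05 stood 953 genes, 6.73% of those tested, of which 520 (3.67%) were higher and 433 (3.06%) lower in IUO. All 4 IUO libraries lay above all 4 PNO libraries for 262 genes (1.85%) and below them for 252 (1.78%). DESeq2 on the same counts called 8 genes (0.0565%), 3 higher and 5 lower in IUO. Its smallest adjusted p was 0.0168, and 1068 genes had an unadjusted p under 0.05. These were Retsat, Ddah2 and Trim45 on the higher side and Ass1, Zwint, Pknox1, ENSRNOG00000019416 and ENSRNOG00000068250 on the lower side. Without IUO 4, DESeq2 called 0 genes, and the smallest adjusted p was 0.0645. limma on log2(FPKM + 0.5) also called 0, with 974 genes at an unadjusted p under 0.05. With the Eif2s3y level as a covariate, edgeR called 0 and 705 genes had an unadjusted p under 0.05. Over all tested genes the median log2 fold change (IUO minus PNO) was 0.00, and 50.8% of genes had a positive and 49.2% a negative one.

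**Figure D2:**
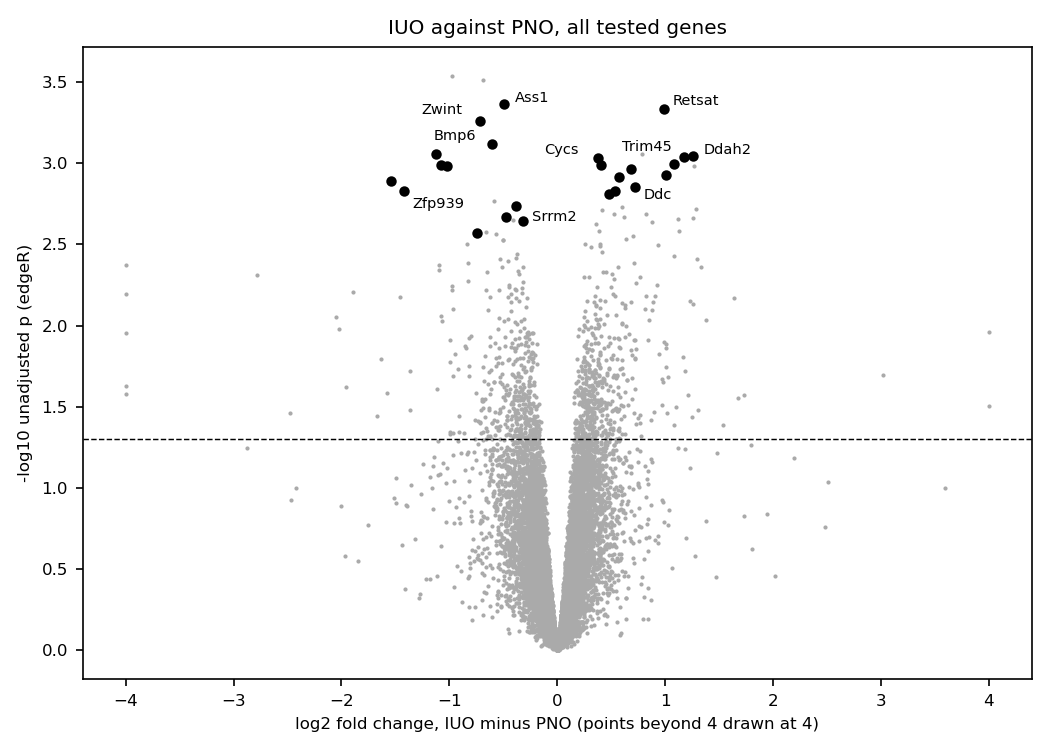
Log2 fold change between IUO and PNO (horizontal axis, IUO minus PNO) against the negative log10 of the unadjusted edgeR p (vertical axis) for the 14170 tested genes. Black points are the 12 genes higher and the 12 lower in IUO with the smallest p among genes with a symbol and a mean of at least 1 CPM, and the dashed line is an unadjusted p of 0.05; no gene passed an adjusted p of 0.05.

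On the higher side in IUO, the genes with the smallest p were Retsat, Ddah2 and Trim45. Retsat, the retinol saturase that converts retinol to dihydroretinol (chr4:104653155-104668310, as placed in the deposited table, whose build is not given), had 116, 105, 94.8 and 128 CPM in IUO libraries, against 36.7, 50.9, 90.6 and 45.2 CPM in PNO libraries and 84.0 to 91.0 CPM in saline libraries. Its IUO and PNO values did not overlap, and PNO 3 lay near the saline level. The log2 fold change was 0.99 (SE 0.21, unadjusted p = 0.000463), and without PNO 3 it was 1.33 and passed in edgeR at an adjusted p of 0.00291. PNO 3 was the PNO library nearest to IUO, so leaving it out widened the gap and is no separate evidence. Ddah2, of the family of enzymes that break down the nitric oxide synthase inhibitor dimethylarginine (chr20:3761465-3764511), had 7.98, 5.52, 7.54 and 7.2 CPM in IUO libraries, against 4.86, 2.9, 2.6 and 1.44 CPM in PNO libraries. Saline libraries held 6.85 to 11.2 CPM, so PNO libraries were the ones set apart. Its log2 fold change was 1.26 (SE 0.30, unadjusted p = 0.000905). Trim45, a ubiquitin ligase of the tripartite motif family (chr2:188349744-188359204), had 12.2, 9.91, 9.82 and 12.6 CPM in IUO libraries, against 6.09, 4.13, 3.22 and 6.29 CPM in PNO libraries. Here 3 saline libraries lay at 5.22 to 5.64 CPM, near PNO, and saline 4 at 11.5 CPM, near IUO. Its log2 fold change was 1.18 (SE 0.28, unadjusted p = 0.000916).

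The other 9 genes on the higher side had log2 fold changes from 0.38 (Cycs) to 1.08 (RGD1309651), and in each all 4 IUO libraries lay above all 4 PNO libraries. Cycs encodes cytochrome c, the electron carrier of the respiratory chain, and had 254, 262, 275 and 333 CPM in IUO libraries, against 218, 204, 208 and 234 CPM in PNO libraries. Saline libraries (252 to 274 CPM) overlapped with IUO. Ddc, the decarboxylase that makes dopamine and serotonin from their amino acid precursors, had 5.35, 4.85, 6.45 and 4.90 CPM in IUO libraries, against 2.98, 3.99, 2.45 and 3.66 CPM in PNO libraries and 5.04 to 6.16 CPM in saline libraries. PNO libraries were again the low ones (log2 fold change 0.72, SE 0.18, unadjusted p = 0.00139). Chst7, a sulfotransferase acting on chondroitin chains, Metrn, the secreted glial factor meteorin, and Ift27, a subunit of the transport machinery of cilia, had log2 fold changes of 0.41, 0.54 and 0.48. For these 3 the saline mean was also nearer to IUO. For Uxt, a prefoldin-like protein, Tpte2, a phosphatase of the voltage-sensing family, and Dus2, which makes dihydrouridine in transfer RNA, the fold changes were 0.68, 1.01 and 0.58, and the saline mean lay nearer to PNO.

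Among the lower genes, Zwint and Ass1 had the smallest p. Zwint encodes a kinetochore protein, and in rat brain its product is also known as a partner of the synaptic protein SNAP25 (chr20:15938157-15953957). It had 1301, 2279, 1307 and 1351 CPM in IUO libraries, against 2654, 2424, 2614 and 2569 CPM in PNO libraries and 2515 to 2993 CPM in saline libraries. IUO 1, IUO 3 and IUO 4 lay together, well below every other library, whereas IUO 2 lay close to the PNO values. The log2 fold change was -0.72 (SE 0.16, unadjusted p = 0.000546), and without IUO 2 it was -0.96 and passed in edgeR at an adjusted p of 0.00131. IUO 2 was the IUO library nearest to PNO, so leaving it out widened the gap and is no separate evidence. Ass1, argininosuccinate synthase, which rebuilds arginine from citrulline (chr3:14747368-14796903), had 9.94, 10.1, 9.38 and 8.69 CPM in IUO libraries, against 12.2, 14.5, 14.1 and 12.9 CPM in PNO libraries. Saline libraries, at 9.82 to 10.9 CPM, lay with IUO (log2 fold change -0.49, SE 0.11, unadjusted p = 0.000429). Pknox1, a homeodomain transcription factor and partner of Hox and Pbx proteins (chr20:9662899-9702290), had 6.55, 5.13, 2.58 and 4.23 CPM in IUO libraries, against 8.84, 11.9, 9.36 and 8.80 CPM in PNO libraries. Saline libraries spanned the gap at 4.72 to 8.26 CPM. Its log2 fold change was -1.07 (SE 0.26, unadjusted p = 0.00102).

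The remaining 9 lower genes had log2 fold changes from -0.31 (Srrm2) to -1.54 (AC109737.1, annotated as a T cell receptor constant segment), again with no overlap between IUO and PNO libraries. Bmp6, a bone morphogenetic protein ligand, had 17.2, 16.4, 19.9 and 14.9 CPM in IUO libraries, against 22.9, 22.2, 33.3 and 25.7 CPM in PNO libraries and 19.6 to 24.4 CPM in saline libraries. Sgsh, the lysosomal sulfamidase of heparan sulfate breakdown, had 2.36, 2.93, 2.70 and 3.22 CPM in IUO libraries, against 7.55, 6.52, 4.03 and 4.65 CPM in PNO libraries. The saline libraries (1.89 to 3.51 CPM) overlapped with IUO, and the log2 fold change was -1.02 (SE 0.24, unadjusted p = 0.00104). Brf2, part of an RNA polymerase III initiation factor, St3gal1, a sialyltransferase, Srrm2, a scaffold protein of nuclear splicing speckles, and Adamts2, which trims procollagen, had log2 fold changes of -0.38, -0.47, -0.31 and -0.74, each with a saline mean nearer to IUO. RGD1562608 (-1.13) had its saline mean nearer to PNO, and the zinc finger gene Zfp939 (-1.42) nearer to IUO. All 24 genes kept their direction with the marker class as a block and without IUO 4. They were chosen by this contrast, so that count describes them and is no separate evidence.

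**Figure D3:**
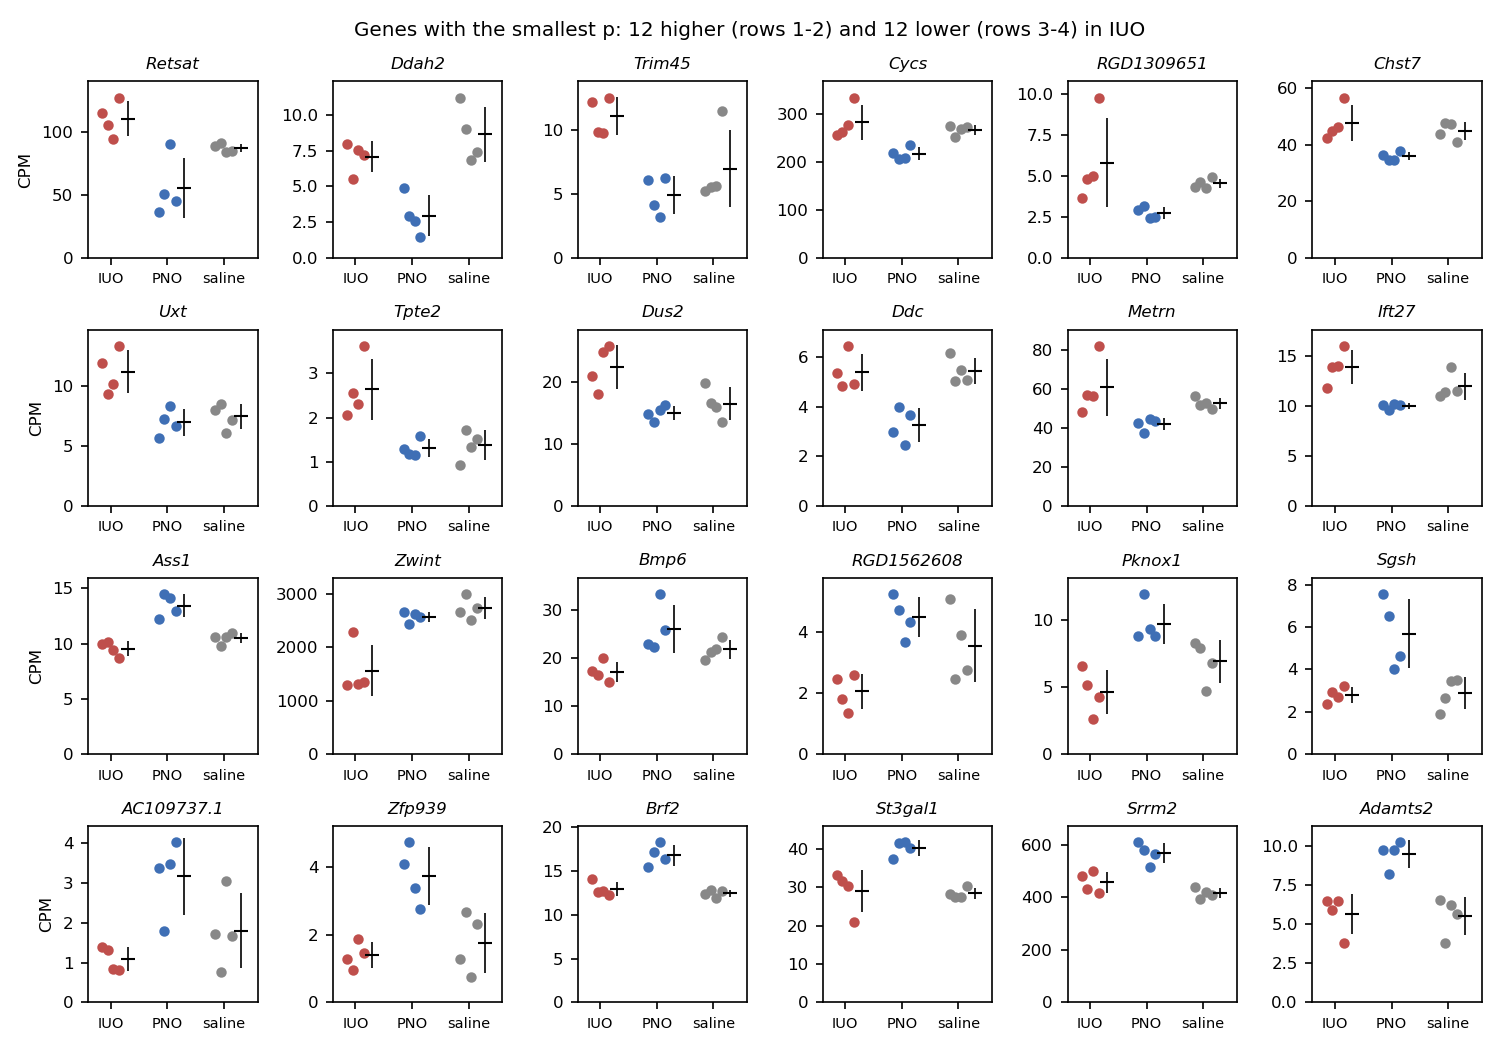
CPM (vertical axes, from 0) of the 12 genes higher and the 12 genes lower in IUO with the smallest p; points are libraries of the IUO, PNO and saline groups, and bars beside them are the mean and SD (n = 4). IUO and PNO points do not overlap in any panel, and IUO 2 is the high IUO point for Zwint.

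Set against saline, most genes at an unadjusted p under 0.05 between the windows had the saline mean on the IUO side. Of the 953 genes at an unadjusted p under 0.05, the saline mean lay nearer to the IUO mean for 690 (72.4%) and nearer to the PNO mean for 263. Over all 14170 tested genes the saline mean was nearer to IUO for 61.5%. Among the 953, saline lay between the 2 means for 643, beyond IUO for 266 and beyond PNO for 44. For all 14170 tested genes these counts were 4711, 5910 and 3549. The 953 were picked for a gap between IUO and PNO, which favours a saline mean between them. The 643 are thus no separate evidence. Of the 24 named genes, 16 had saline nearer to IUO. Raised bulb markers were present in 3 PNO libraries and in 0 saline libraries. The part of those markers in the split was not tested.

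Immediate early genes, which are transcribed within minutes of neuronal firing, leaned lower in IUO. Of 27 tested members, 8 had positive and 19 negative log2 fold changes, with a median of -0.28 against 0.00 over all genes. None passed, and 6 (22.2%), all lower, had an unadjusted p under 0.05, against 6.73% of all tested genes. The list's level was 4.23, 4.02, 5.0 and 4.87 in IUO libraries, against 4.63, 4.70, 4.95 and 5.11 in PNO libraries and 4.8 to 5.1 in saline libraries (mean log2 CPM). The low values were those of IUO 1 and IUO 2, and IUO 3 and IUO 4 lay within the range of PNO and saline. Striatal markers were raised in IUO 1 and IUO 2, as they were in PNO 2 (list level 4.70) and saline 2 (4.8). Their part in the list's level was not tested. With the marker class as a block the list's median was -0.19, and with the striatal libraries left out it was 0.05, so its sign turned.

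Arc, whose product regulates AMPA receptors at active synapses, showed the split most plainly, with 51.5, 39.8, 306 and 211 CPM in IUO libraries, against 175, 189, 299 and 330 CPM in PNO libraries and 243 to 391 CPM in saline libraries. IUO 1 and IUO 2 lay below every other library, and the groups overlapped (unadjusted p = 0.19). Nr4a1, an orphan nuclear receptor, had 47.6, 33.5, 129 and 90.1 CPM in IUO libraries, against 93.6, 90.2, 152 and 176 CPM in PNO libraries (log2 fold change -0.77, unadjusted p = 0.0496). Fos, a subunit of the AP-1 transcription factor, followed the same order, with 8.03, 5.70, 32.7 and 18.9 CPM in IUO libraries, against 14.5, 16.5, 25.9 and 32.3 CPM in PNO libraries. Not every member shared this split. Jun, the other AP-1 subunit, had 64.4, 65.6, 68.0 and 72.9 CPM in IUO libraries, against 77.1, 71.5, 84.5 and 83.7 CPM in PNO libraries, so that 3 PNO libraries lay above all IUO libraries (log2 fold change -0.23, SE 0.08, unadjusted p = 0.0111). Sik1, a kinase that restrains cAMP-driven transcription, had 3.20, 3.28, 6.38 and 3.22 CPM in IUO libraries, against 4.84, 6.35, 7.15 and 9.95 CPM in PNO libraries; IUO 4 was here as low as IUO 1 and IUO 2 (log2 fold change -0.81, SE 0.31, unadjusted p = 0.0205). Per1, a clock gene, is also induced by cAMP. It had 43.8, 38.9, 81.3 and 33.0 CPM in IUO libraries, against 77.0, 58.3, 81.2 and 89.6 CPM in PNO libraries. IUO 3, with raised bulb markers, was the only IUO library in the PNO range (unadjusted p = 0.0193). The log2 fold change of Per1 was -0.64, and -0.31 with the marker class as a block. Fosl2 (unadjusted p = 0.0346), with no overlap between the groups, and Dusp6 (unadjusted p = 0.0446) were the other 2 of the 6. Nr4a2, a related nuclear receptor, ran the other way (log2 fold change 0.33, unadjusted p = 0.391).

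**Figure D4:**
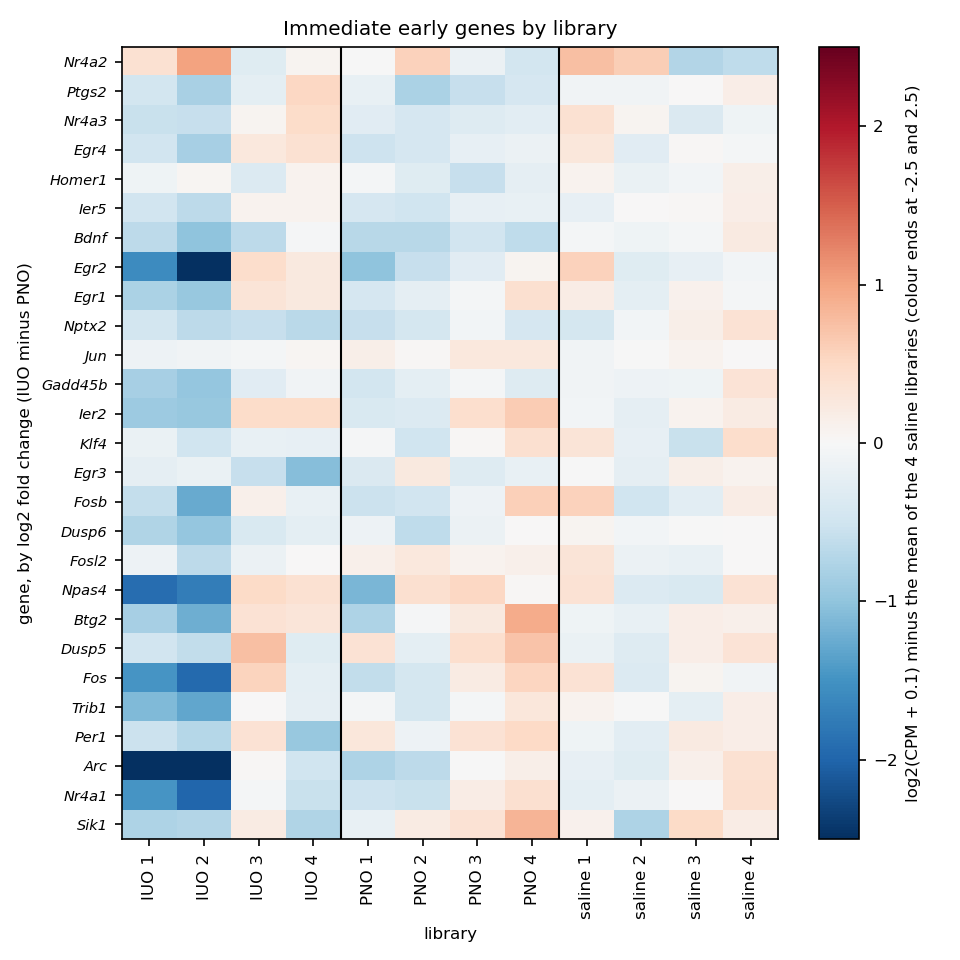
Immediate early genes (rows, ordered by log2 fold change of IUO minus PNO) in each library (columns: IUO, PNO, saline); colour is log2(CPM + 0.1) minus the mean of the 4 saline libraries, red above and blue below. The fields of Arc, Fos and Nr4a1 are dark blue in IUO 1 and IUO 2.

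Promoters of this list are shown because cAMP and serum response elements are textbook control sites of immediate early genes. Sequences are the 250 bases before the RefSeq gene start in GRCr8, 5′ to 3′ on the gene's strand, for Nr4a1 (chr7:134259888-134260137), Sik1 (chr20:9958647-9958896, minus strand), Btg2 (chr13:48087691-48087940, minus strand) and Egr1 (chr18:26736828-26737077). Capitals mark matches to TGACG, the core of the cAMP response element, on either strand, to the full TGACGTCA, which contains TGACG on both strands, and to the CArG box of the serum response factor. Nr4a1 and Sik1 stand for the members lower in IUO, Btg2 for the full cAMP element and Egr1 for the CArG box, and these 4 were picked after the values were seen.
Nr4a1: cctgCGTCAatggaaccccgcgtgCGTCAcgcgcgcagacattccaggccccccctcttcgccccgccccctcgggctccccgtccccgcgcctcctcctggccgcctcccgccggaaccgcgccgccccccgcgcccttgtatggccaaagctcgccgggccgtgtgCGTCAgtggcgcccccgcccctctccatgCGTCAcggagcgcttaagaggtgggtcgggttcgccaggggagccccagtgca
Sik1: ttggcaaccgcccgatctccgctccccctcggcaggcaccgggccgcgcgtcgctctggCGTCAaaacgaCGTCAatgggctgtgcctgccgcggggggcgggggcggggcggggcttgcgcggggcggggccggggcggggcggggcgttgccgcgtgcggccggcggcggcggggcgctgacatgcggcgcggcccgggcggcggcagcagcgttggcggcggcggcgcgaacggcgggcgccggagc
Btg2: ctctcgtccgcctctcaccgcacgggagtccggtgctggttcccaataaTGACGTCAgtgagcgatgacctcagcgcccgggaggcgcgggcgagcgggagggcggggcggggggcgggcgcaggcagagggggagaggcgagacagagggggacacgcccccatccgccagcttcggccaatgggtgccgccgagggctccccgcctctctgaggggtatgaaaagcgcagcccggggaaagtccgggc
Egr1: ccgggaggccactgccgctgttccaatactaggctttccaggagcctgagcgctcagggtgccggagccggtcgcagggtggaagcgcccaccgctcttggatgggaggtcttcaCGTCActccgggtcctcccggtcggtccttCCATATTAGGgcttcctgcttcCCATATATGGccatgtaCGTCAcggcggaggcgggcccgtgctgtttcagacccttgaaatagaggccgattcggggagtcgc
TGACG was found at 4 places in Nr4a1, all as CGTCA on the printed strand, at 2 in Sik1 and at 2 in Egr1, whose window also held 2 CArG boxes. Btg2 held 1 full TGACGTCA, which counts as 2 places of TGACG, 1 on each strand. Over the list, 21 of 27 genes matched a promoter, and 10 of these held TGACG, 2 held TGACGTCA and 3 the CArG box. The same windows of all 33469 promoter entries, of tested genes or not, held them in 18.2%, 1.59% and 1.5%. The list counted 1 promoter per gene, and base composition was not matched. The shares are therefore not from like sets, and no excess can be read from them. Such a match is a string of letters in a window and not a measured site. Btg2, an antiproliferative gene, had 12.3, 9.39, 28.5 and 27.4 CPM in IUO libraries, against 12.9, 21.5, 26.0 and 41.9 CPM in PNO libraries. Egr1, a zinc finger factor, had 130, 116, 282 and 266 CPM in IUO libraries, against 168, 194, 218 and 297 CPM in PNO libraries. In both genes IUO 1 and IUO 2 were the lowest of the 8 libraries, and neither gene was near the threshold (unadjusted p = 0.294 and 0.601).

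No opioid gene passed between the windows. Of 6 tested opioid receptor and peptide genes, 3 were higher and 3 lower, with a median log2 fold change of 0.02 that turned to -0.14 with the marker class as a block. Pnoc, the precursor of nociceptin, had 9.07, 10.2, 9.89 and 14.9 CPM in IUO libraries, against 7.79, 7.28, 8.61 and 7.85 CPM in PNO libraries, with no overlap and with saline spanning 7.29 to 10.2 CPM (log2 fold change 0.48, SE 0.17, unadjusted p = 0.0117; 0.30 without IUO 4). Oprd1, the delta receptor gene, had 1.58, 2.16, 1.46 and 1.49 CPM in IUO libraries, against 0.944, 1.20, 1.79 and 0.916 CPM in PNO libraries (unadjusted p = 0.201). Oprl1, the nociceptin receptor gene, had 13.1 to 16.7 CPM in IUO libraries and 12.8 to 15.7 CPM in PNO libraries. The enkephalin gene Penk had 134, 296, 113 and 106 CPM in IUO libraries, against 95.4, 381, 94.6 and 95.1 CPM in PNO libraries, and the dynorphin gene Pdyn peaked in the same libraries, at 67.5 CPM in IUO 2 and 79.2 CPM in PNO 2. Without IUO 4 the log2 fold changes of Penk and Pdyn changed sign, -0.04 becoming 0.12 and -0.09 becoming 0.12. Both are abundant in striatal neurons, and IUO 2 and PNO 2 had the highest striatal markers. Oprm1, the mu receptor gene on whose product oxycodone chiefly acts, stood under the expression filter with 25 counts over the 4 IUO libraries, 32 over the 4 PNO libraries and 6 over the 4 saline libraries, so no difference was detectable at this depth. Oprk1, the kappa receptor gene, also lay under the filter (448, 558 and 403 counts in IUO, PNO and saline).

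Pomc, the precursor of beta-endorphin and of pituitary hormones, had 1.51, 0.957, 1.43 and 1.91 CPM in IUO libraries, against 1.15, 11.5, 7.08 and 1.95 CPM in PNO libraries (log2 fold change -1.89, SE 0.58, unadjusted p = 0.00621). Only PNO 2 and PNO 3 were high. Of 4 further pituitary hormone genes looked at after the values were seen, Gh1 and Prl were highest in the same libraries. Gh1 had 1.99 CPM in PNO 2 and 8.54 CPM in PNO 3, and Prl 1.49 and 2.20 CPM, with Prl at 0 in the other 10 libraries and Gh1 at most 0.882 CPM. Tshb was at most 0.208 CPM in any library, and Cga had 0.243 CPM in PNO 2 and 0.738 CPM in PNO 3, against 0.512 CPM in saline 4. Their part in the Pomc difference was not tested. Among 27 genes of opioid receptor transduction (G proteins, adenylyl cyclases, regulators), 8 were higher and 19 lower, with a median of -0.10. Rgs10, a regulator of G protein signalling, was the 1 member at an unadjusted p under 0.05, with 36.1, 47.4, 44.5 and 74.6 CPM in IUO libraries, against 36.9, 34.7, 33.0 and 34.7 CPM in PNO libraries; IUO 4 was the high value, and the log2 fold change of 0.54 was 0.29 without it.

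Inhibitory neuron genes lay on both sides. Of 18 tested GABAergic genes, 7 were higher and 11 lower in IUO, with a median of -0.11. The median was -0.02 without IUO 4 and 0.05, with the sign turned, under the marker class as a block. In the list 4 genes (22.2%), 3 higher and 1 lower, had an unadjusted p under 0.05, against 6.73% of all tested genes. Npy and Sst, peptides of cortical interneurons, were on the higher side. Npy had 86.2, 74.6, 100.1 and 108 CPM in IUO libraries, against 66.4, 71.3, 80.0 and 63.6 CPM in PNO libraries. Sst had 207, 178, 219 and 278 CPM in IUO libraries, against 174, 169, 195 and 154 CPM in PNO libraries. For both peptides 1 PNO library, PNO 3, reached into the IUO range. Saline libraries for Npy (61.1 to 93.7 CPM) spanned the PNO range and reached into that of IUO, with the mean nearer to PNO. For Sst (184 to 245 CPM) they overlapped with both groups, with the mean nearer to IUO. The log2 fold changes were 0.39 (SE 0.14, unadjusted p = 0.0173) and 0.35 (SE 0.13, unadjusted p = 0.0187), or 0.31 and 0.22 without IUO 4. Kcnc2, a fast potassium channel of interneurons, had a log2 fold change of 0.26 (unadjusted p = 0.0189). Of 11 tested GABA-A receptor subunit genes, 4 were higher and 7 lower, with a median of -0.10 that turned to 0.025 without IUO 4.

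The 1 lower GABAergic member at an unadjusted p under 0.05 was Dlx2, a homeobox factor of inhibitory neuron precursors that is also on the bulb list. It had 5.99, 6.17, 20.7 and 3.44 CPM in IUO libraries, against 17.5, 10.1, 21.9 and 22.9 CPM in PNO libraries. The high libraries were the 4 with raised bulb markers. Of 12 tested bulb granule and periglomerular genes, 2 were higher and 10 lower in IUO, with a median of -0.67, and with the marker class as a block the median was -0.05. Meis2 (log2 fold change -0.55), Tshz1 (-0.75) and Dlx2 (-1.0) had an unadjusted p under 0.05, and with the block their values were -0.26, -0.27 and -0.39. The 6 projection neuron genes of the bulb, among them Cdhr1 and Eomes, had a median of -0.63, which turned to 0.38 with the block. Among striatal markers, 2 of 14 were higher and 12 lower, with 0 at an unadjusted p under 0.05 and none called in edgeR or DESeq2. Their median was -0.17 (-0.60 with the block), and it turned to 0.09 without IUO 4. Drd2, the D2 dopamine receptor gene, had 20.2, 49.9, 5.71 and 3.98 CPM in IUO libraries, against 9.37, 75.8, 5.22 and 6.75 CPM in PNO libraries. Without PNO 2 alone the striatal list's median moved to 1.13, and without IUO 3 alone that of the bulb projection list moved to -2.18.

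Astrocyte, microglial and myelin genes leaned higher in IUO. Their 3 lists held more members higher than lower in sign. Among astrocyte genes 15 of 17 were higher and 2 lower, with a median of 0.08. That median was 0.02 with the marker class as a block and -0.02 without the bulb libraries. Of the 17, 3 (17.6%), all higher, had an unadjusted p under 0.05, against 6.73% of all tested genes. Sox9, a transcription factor of astrocytes, had 12.8, 9.43, 11.3 and 13.3 CPM in IUO libraries, against 7.64, 9.50, 7.75 and 6.12 CPM in PNO libraries. Only PNO 2 reached the lowest IUO value (log2 fold change 0.60, SE 0.15, unadjusted p = 0.00186; 0.48 with the marker class as a block). S100b, a calcium-binding protein, had 1072, 989, 1005 and 1212 CPM in IUO libraries, against 898, 899, 952 and 861 CPM in PNO libraries, with no overlap (log2 fold change 0.25, unadjusted p = 0.0166). Gfap, the filament protein of astrocytes, had 396, 355, 439 and 403 CPM in IUO libraries, against 365, 228, 331 and 321 CPM in PNO libraries (log2 fold change 0.35, unadjusted p = 0.0196). Saline libraries lay at 310 to 393 CPM for Gfap, across the ranges of both groups. Bcan, brevican of the perineuronal matrix and largely of glial origin, had 485, 484, 504.5 and 542 CPM in IUO libraries, against 407, 414, 451 and 412 CPM in PNO libraries and 437 to 493 CPM in saline libraries (log2 fold change 0.26, SE 0.07, unadjusted p = 0.00313). The IUO and PNO libraries did not overlap for Bcan.

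Microglial genes counted 12 higher and 6 lower of 18, with a median of 0.11, or 0.04 without IUO 4. Tmem119, a marker of resident microglia, had 24.6, 27.8, 30.3 and 27.5 CPM in IUO libraries, against 20.0, 22.2, 25.4 and 23.1 CPM in PNO libraries (log2 fold change 0.28, unadjusted p = 0.0296). Aif1, which encodes the microglial protein Iba1, had 11.8, 8.18, 11.8 and 20.8 CPM in IUO libraries, against 8.58, 6.90, 9.24 and 9.36 CPM in PNO libraries, and its log2 fold change of 0.62 (unadjusted p = 0.0256) was 0.31 without IUO 4. Genes of myelin were higher in sign in all 16 of 16 cases, with a median of 0.31. Of the 16, 1 (6.25%) had an unadjusted p under 0.05, against 6.73% of all tested genes. The list's level was 7.89, 8.31, 7.0 and 7.28 in IUO libraries, against 7.23, 7.92, 7.15 and 7.1 in PNO libraries (mean log2 CPM). Values were high in IUO 1, IUO 2 and PNO 2, the libraries whose striatal markers were raised. With the marker class as a block the myelin median was -0.02, without the striatal libraries -0.05 and without the bulb libraries -0.04, so its sign turned in all 3. Precursor genes of oligodendrocytes split into 7 higher and 5 lower, and Cspg4, their proteoglycan NG2, was on the lower side (log2 fold change -0.30, unadjusted p = 0.0305).

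Postsynaptic density and presynaptic genes leaned lower in IUO in sign, where 49.2% of all tested genes had a negative log2 fold change. Of 23 postsynaptic density genes 4 were higher and 19 lower (median -0.19), of 26 presynaptic genes 8 and 18 (median -0.12), whereas of 29 glutamate receptor and transporter genes 13 were higher and 16 lower (median -0.03). Without IUO 4 these medians were -0.12, -0.02 and 0.00. Gria1, the GluA1 subunit of AMPA receptors, had 70.4, 61.9, 61.9 and 47.9 CPM in IUO libraries, against 84.6, 107, 73.2 and 79.1 CPM in PNO libraries. The groups did not overlap, and saline libraries, at 46.1 to 62.4 CPM, lay with IUO (log2 fold change -0.51, SE 0.14, unadjusted p = 0.00297; -0.56 with the marker class as a block and -0.41 without IUO 4). Unc13a, which primes synaptic vesicles, had 141, 128, 109.8 and 90.8 CPM in IUO libraries, against 162, 189, 133 and 159 CPM in PNO libraries, and saline libraries at 88.6 to 117 CPM lay below all PNO libraries (log2 fold change -0.46, unadjusted p = 0.00668). Lrrc7, the scaffold densin-180, had a log2 fold change of -0.46 (unadjusted p = 0.00911). Against this direction, Nrgn, neurogranin, which binds calmodulin in spines, had 842, 997, 891 and 1609 CPM in IUO libraries, against 855, 616, 859 and 838 CPM in PNO libraries. Its log2 fold change of 0.45 (unadjusted p = 0.0301) was 0.20 without IUO 4, the library with the highest value.

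Among calcium and sodium channels 9 were higher and 14 lower of 23. Of these, 4 (17.4%), 3 of them lower, had an unadjusted p under 0.05, against 6.73% of all tested genes. Cacna1h, a T-type calcium channel, had 54.5, 54.0, 73.7 and 43.1 CPM in IUO libraries, against 70.0, 86.2, 82.6 and 81.1 CPM in PNO libraries and 47.4 to 58.3 CPM in saline libraries. IUO 3 alone reached the PNO range (log2 fold change -0.51, SE 0.14, unadjusted p = 0.00298). Cacna1c, an L-type channel, had 19.4, 18.2, 20.6 and 14.5 CPM in IUO libraries, against 23.8, 24.3, 20.9 and 23.3 CPM in PNO libraries and 12.9 to 17.5 CPM in saline libraries (log2 fold change -0.34, unadjusted p = 0.0239). The PNO mean was thus the highest for both channels. For Cacna1c the IUO mean (18.2 CPM) lay between the means of saline (15.1 CPM) and PNO (23.1 CPM).

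Chromatin genes were mostly lower in IUO, 20 of 24 with 4 higher (median -0.12). The median was -0.12 with the marker class as a block, -0.11 without IUO 4 and -0.09 with the trend over gene length removed. Of the 24, 3 (12.5%), all lower, had an unadjusted p under 0.05, against 6.73% of all tested genes. Chd3, a remodeller of the NuRD complex, had 561, 453, 623 and 451 CPM in IUO libraries, against 652, 634, 729 and 713 CPM in PNO libraries, with no overlap and with saline at 516 to 620.1 CPM (log2 fold change -0.39, SE 0.11, unadjusted p = 0.00381). Dnmt1, the maintenance DNA methyltransferase, had 38.1, 31.0, 41.5 and 29.3 CPM in IUO libraries, against 42.5, 42.0, 41.9 and 41.5 CPM in PNO libraries. Its PNO values were nearly identical, and its saline values lay at 33.3 to 34.0 CPM (log2 fold change -0.26, unadjusted p = 0.0236). Chd8, another remodeller, had a log2 fold change of -0.17 (unadjusted p = 0.0305). With the marker class as a block the log2 fold changes of Chd3, Dnmt1 and Chd8 were -0.27, -0.17 and -0.17. Sox4, a transcription factor of immature neurons, had 13.3, 11.8, 12.3 and 12.4 CPM in IUO libraries, against 16.3, 15.0, 15.8 and 15.3 CPM in PNO libraries, with saline between and across both at 12.7 to 15.9 CPM (log2 fold change -0.33, SE 0.10, unadjusted p = 0.00628). Of the 8 genes of immature neurons and proliferation, 3 were higher and 5 lower. At an unadjusted p under 0.05 stood 2 of them (25.0%, against 6.73% of all tested genes), Sox4 lower and the stem cell factor Sox2 higher.

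Genes of protein synthesis and of energy metabolism were mostly higher in IUO in sign, by small amounts that were smaller still or turned sign without IUO 4. Cytosolic ribosomal protein genes were higher in 79 and lower in 14 of 93, with a median of 0.20; without IUO 4 the median was -0.02, so its sign turned. Genes of mitochondrial ribosomes (64 higher, 6 lower of 70), the nuclear-encoded respiratory chain (70 and 7 of 77) and the proteasome (31 and 4 of 35) had medians of 0.17, 0.19 and 0.12, and 0.04, 0.05 and 0.03 without IUO 4. Mrps23, of the small mitochondrial ribosomal subunit, had 20.3, 24, 23.0 and 35.2 CPM in IUO libraries, against 19.0, 18.6, 19.0 and 19.6 CPM in PNO libraries and 23.6 to 27.0 CPM in saline libraries. Its groups did not overlap, and its log2 fold change of 0.43 was 0.24 without IUO 4. Atp5mc3, of the rotor ring of ATP synthase, had 184, 192, 188 and 202 CPM in IUO libraries, against 171, 146, 167 and 159 CPM in PNO libraries and 185 to 215 CPM in saline libraries. The groups did not overlap, and IUO 4 was the highest of the 8 (log2 fold change 0.25, SE 0.07, unadjusted p = 0.00498; 0.23 without IUO 4). The 13 mitochondrially encoded genes had a median of -0.03. Across 14075 genes the log2 fold change was lower for longer genes, by a length taken as the ratio of counts to FPKM (Spearman's rho -0.285, or -0.0983 without IUO 4), a description across genes that share the same libraries.

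Among the remaining lists, meningeal genes were lower in IUO in sign in 13 of 13 cases (median -0.33). Of the 13, 2 (15.4%) had an unadjusted p under 0.05, against 6.73% of all tested genes. The list's level was 4.75, 4.57, 4.74 and 5.23 in IUO libraries, against 4.92, 4.63, 5.55 and 5.45 in PNO libraries (mean log2 CPM), with PNO 3 and PNO 4 above every IUO library. The 2 genes were collagen genes, Col1a2 (log2 fold change -0.69, unadjusted p = 0.0292) and Col1a1 (-0.99, unadjusted p = 0.0167), with 47.0, 42.2, 70.2 and 66.7 CPM in IUO libraries, against 71.8, 53.6, 114 and 211 CPM in PNO libraries. Without the bulb libraries the meningeal median was 0.21, from a fit in which PNO 2 stood alone for its group. Ttr, the transthyretin of choroid plexus, had 199 CPM in IUO 2, at most 2.84 CPM in the other IUO libraries and 0.364 to 1.09 CPM in PNO libraries, while 6 of the 10 choroid and ependymal genes were under the filter. Blood genes were 4 higher and 3 lower. Neuropeptide genes counted 10 higher and 6 lower of 16 (median 0.20, or 0.07 without IUO 4). At an unadjusted p under 0.05 stood 3 (18.8%, against 6.73% of all tested genes), the Npy, Sst and Pnoc described above. Counts were for perineuronal matrix genes 5 higher and 6 lower of 11, for voltage-gated potassium channel genes 6 and 11 of 17, and for clock genes 10 and 7 of 17. Inflammation genes counted 5 higher and 6 lower of 11, with Tnfaip3, a brake on NF-kappaB signalling, on the lower side (log2 fold change -0.54, unadjusted p = 0.00898). Interferon and antigen presentation genes counted 9 higher and 7 lower of 16, with Psmb8, an immunoproteasome subunit, on the higher side (0.56, unadjusted p = 0.0237). Genes of heat shock and of the unfolded protein response counted 18 and 11 of 29, where Hyou1, a chaperone of the endoplasmic reticulum, was on the lower side (-0.23, unadjusted p = 0.0162) and Hspe1, a mitochondrial chaperone, on the higher side (0.31, unadjusted p = 0.0336). Hormone response genes counted 10 higher and 9 lower of 19, with the mineralocorticoid receptor gene Nr3c2 at -0.28 (unadjusted p = 0.038). Endothelial genes counted 7 and 7 of 14, and Cdh5, their cadherin, was lower in IUO with no overlap (-0.33, unadjusted p = 0.0175). Monoamine receptor genes counted 4 higher and 14 lower of 18 (median -0.16, or -0.05 without IUO 4), with the adrenergic receptor gene Adra1a at -0.42 (unadjusted p = 0.0362). Cortical layer, cholesterol synthesis, endocannabinoid and neurotrophin genes had 0 members at an unadjusted p under 0.05 and none called in edgeR or in DESeq2.

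**Figure D5:**
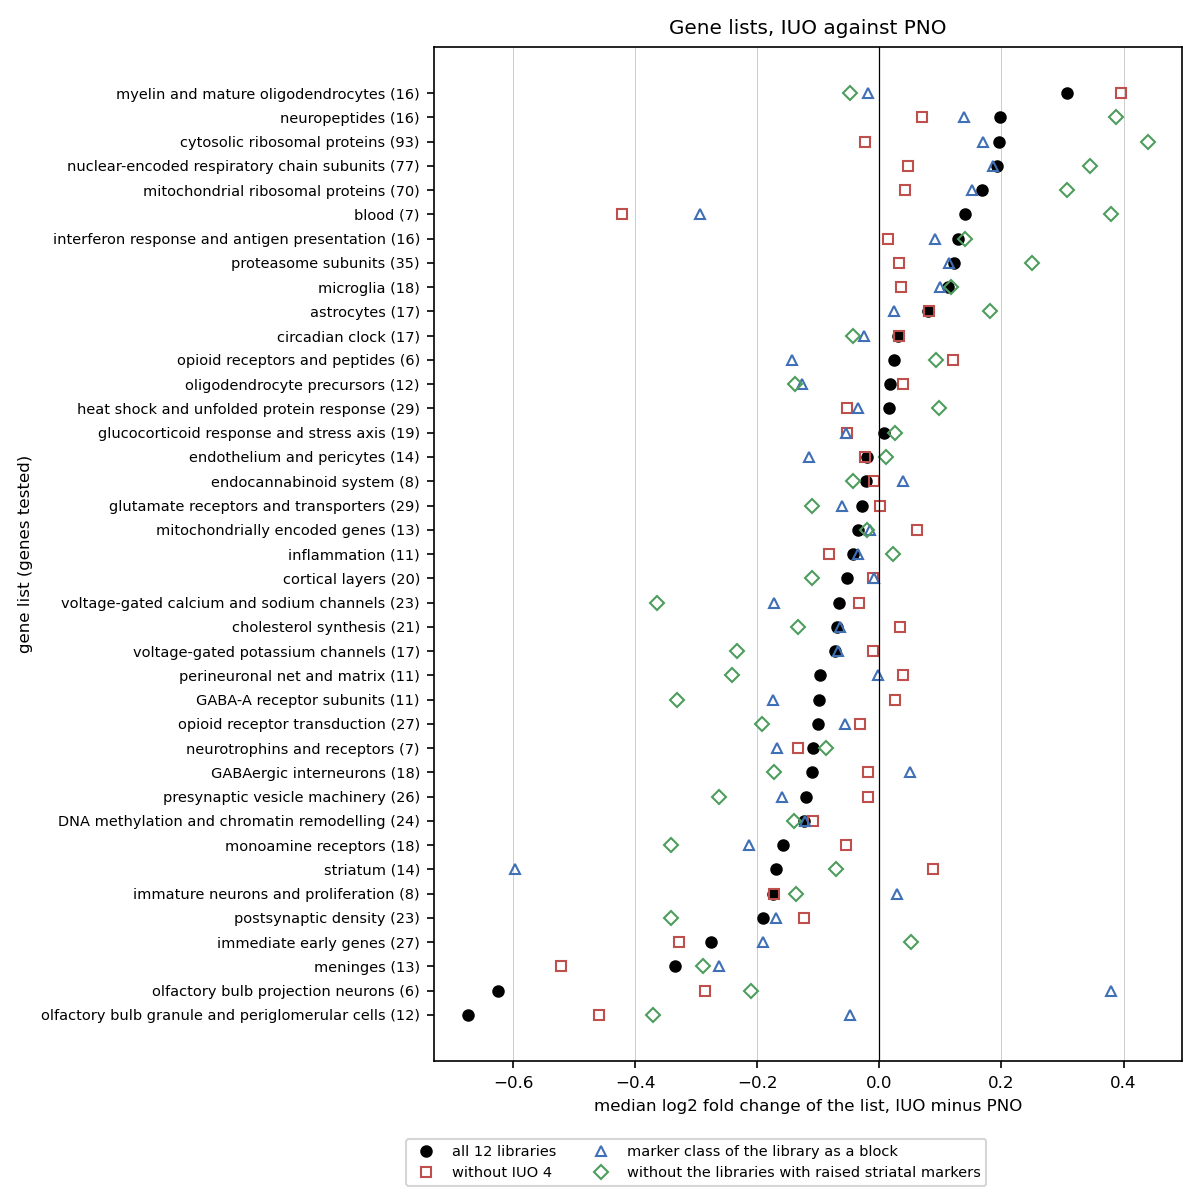
Median log2 fold change (horizontal axis, IUO minus PNO) of each gene list with at least 6 tested genes (vertical axis, number tested in brackets), from all 12 libraries, without IUO 4, with the marker class of the library as a block and with the striatal libraries left out. Medians that cross 0 under at least 1 of these settings include those of the myelin, bulb projection, GABAergic, immediate early, striatal and opioid receptor lists. The ribosomal median does so without IUO 4, and further lists not named here also cross 0.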

How the data were processed

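Prefrontal cortex RNA was poly(A)-selected and sequenced with a stranded kit, 1 library per animal, per the labels' protocols. The submitters' processing notes name HISAT2 and StringTie; versions, genome build and annotation are, in the sources used here, not given. The authors deposited whole-number counts and FPKM per gene and library in 1 table, per the file headers. No column was left without a sample (0 unmapped). The lowest total count was 49227533, and counting error mattered only for genes with few reads.

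Filtering kept genes whose FPKM averaged 0.5 or more across all 12 libraries. They were tested with edgeR's quasi-likelihood test (TMM scaling), contrast IUO minus PNO in a fit of 3 groups, two-sided, with Benjamini-Hochberg adjustment over all genes and a threshold of 0.05. CPM, log2 CPM (prior count 2) and SDs were computed from the counts. List levels are means of log2 CPM. Alternatives were DESeq2, limma on log2(FPKM + 0.5), other filters and scalings, covariates, the replicate block and leaving libraries out. Named genes are, in each direction, the 12 with a symbol, a mean CPM of at least 1 and the smallest p, then up to 3 members of each of 41 lists with the smallest p, the opioid genes, and the striatal and bulb markers. The members and lists were chosen with earlier results of these data known. Promoters came from RefSeq (GRCr8), matched by symbol for 9911 of 14071 tested symbols. Software was edgeR 4.0.16, DESeq2 1.42.0 and limma 3.58.1 in R 4.3.3, with figures from matplotlib 3.10.9 in Python 3.11.15.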

Additional observations from a re-analysis of the deposited data

Results flagged for a closer look

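In 39 of 372 groups of 4 libraries examined (each group for each named gene or list level), 1 library stood apart from the other 3 by Dixon's criterion, and chance alone would mark about 1 in 20.

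In IUO, Zwint stood at 2280 CPM in IUO 2, against 1300.8 to 1350 CPM in the others. IUO 3 stood apart for Sik1 (6.38 CPM), Dlx2 (20.7 CPM), Cdhr1 (143 CPM) and Eomes (11.2 CPM), for the bulb granule list (5.16 mean log2 CPM) and for the Y-linked list (4.98). IUO 2 stood apart for Ttr (199 CPM) and Penk (296 CPM), and IUO 4 for the heat shock list (6.70) and the blood list (5.17).

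In PNO, PNO 2 was the separate library for most items. It was high for Penk (381 CPM), Pdyn (79.2 CPM), Drd2 (75.8 CPM) and Pde10a (41.1 CPM), and for the opioid transduction (6.09), striatal (6.52) and myelin (7.92) lists. It was low for Ift27 (9.59 CPM), Nrgn (616 CPM) and Meis2 (130 CPM), and for the bulb projection (1.30), bulb granule (3.5) and microglial (4.15) lists. PNO 3 stood apart for Bcan (451 CPM) and the choroid plexus list (1.22).

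In saline, saline 4 stood apart for Trim45 (11.5 CPM) and the perineuronal list (4.58), saline 3 for Ift27 (14.0 CPM), S100b (870 CPM) and the opioid transduction list (5.82), and saline 1 for Aif1 (14.7 CPM), Rgs10 (49.7 CPM) and Ttr (17.5 CPM). Saline 2 stood apart for Penk (145 CPM) and Drd2 (15.9 CPM), and for the neuropeptide (4.46), striatal (4.75) and meningeal (4.77) lists. No explanation of these values was tested.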

How the results depend on the processing

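Under 25 alternative settings 11 of 82 genes named in the report, none of them called, changed sign at least once. These were Fos (0.0915), Btg2 (0.0521) and Egr1 (0.266) without the striatal libraries, Dusp6 (0.004) and Nr4a2 (-0.049) without the bulb libraries, and Egr1 with IUO 1, IUO 2 or PNO 4 left out (-0.35 to 0.0446 over single libraries left out). They were also Oprl1 (-0.0203) and Penk (0.205) without the striatal libraries, Eomes (0.0897) without the bulb libraries, and Oprl1 (-0.0156), Cdhr1 (0.191) and Eomes (0.469) with the marker class as a block. Penk (0.449), Pdyn (0.336) and Drd2 (0.848) turned with sample weights and, at 0.118, 0.116 and 0.0545, in DESeq2 without IUO 4. With single libraries left out they ran from -0.501 to 0.773, -0.688 to 0.681 and -1.28 to 1.49. Under the replicate block Penk was at 0.118 and Drd2 at 0.00213, and Penk also turned with limma (0.13, 0.131 and 0.129 with pseudocounts of 0.5, 0.1 and 1), marker covariates (0.123) and the length trend removed (0.0396). The count of genes changed, 0 in edgeR, was 8 in DESeq2, 3 without the libraries with raised striatal markers (Zwint, Ppial4d and ENSRNOG00000066636), 3 without the libraries with raised bulb markers, and 0 to 1 with single libraries left out: Zwint without IUO 2 and Retsat without PNO 3. It was 0 under the other settings, including limma with each pseudocount, sample weights, no filter and covariates. Genes at an unadjusted p under 0.05, 953 in the main test, numbered 1927 without the striatal libraries, 625 without the bulb libraries, 510 with marker levels as covariates, and 603 (without IUO 4) to 1434 (without IUO 1) with single libraries left out. No cause of these shifts was tested. ENSRNOG00000066636, called without the striatal libraries, was listed at 0 in IUO 3 and IUO 4, the IUO libraries left in that fit. It had 40.8 and 37.3 CPM in IUO 1 and IUO 2, and 32.6 to 41.6 CPM in PNO libraries. Settings without the bulb libraries leave PNO 2 alone, assumed to vary like the other groups. The marker class as a block (0 called, 717 at an unadjusted p under 0.05) and DESeq2 without IUO 4 (0 called, 656) were chosen after seeing the data.

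The replicate numbers were not shown to pair the animals: deviations of same-numbered IUO and PNO libraries correlated at 0.0579, 0.411, 0.238 and 0.0616, and the PNO library most like IUO 1, IUO 2, IUO 3 and IUO 4 was number 2, 2, 3 and 3. With the replicate number as a block, 0 genes were called and 1144 had an unadjusted p under 0.05. With 4 animals a group, genes with few counts, such as Oprm1, could not be assessed.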

Other observations

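Some protein-coding genes were present in part of the libraries and at or near 0 in the rest. Outside the striatal, bulb, choroid plexus, blood and Y-linked lists and the Y chromosome, 75 protein-coding genes reached at least 5 CPM in an IUO or PNO library and had a highest value at least 8 times the lowest among those 8 libraries (after adding 0.1 CPM), and 8 of them had an unadjusted p under 0.05 between IUO and PNO. Those named here were chosen after their values were seen.

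Zfp579, a zinc finger gene, had 22.8 to 28.0 CPM in IUO libraries and 24.2 to 30.1 CPM in 3 PNO libraries, but was listed at 0 in PNO 3. Stxbp6, which encodes the SNARE-binding protein amisyn, had 47.2, 53.8, 54.1 and 2.72 CPM in IUO libraries, against 54.2, 40.0, 44.6 and 5.46 CPM in PNO libraries and 40.4, 3.16, 42.3 and 2.89 CPM in saline libraries. Libraries of all 3 groups thus fell into a high and a low set for Stxbp6. Arnt2, a partner of the neuronal activity factor Npas4, had 129, 101, 77.5 and 12.4 CPM in IUO libraries, against 110.0, 44.4, 101 and 28.8 CPM in PNO libraries. Spp1, osteopontin, was highest in IUO 3 (39.6 CPM), PNO 1 (17.5 CPM), PNO 3 (25.3 CPM) and PNO 4 (23.3 CPM), the libraries with raised bulb markers, and at most 5.0 CPM elsewhere.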
